A study of Mus musculus with 10 samples.

Results

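The comparison set the mouse lung libraries with 2 floxed Apex1 alleles against every library that kept an allele without loxP sites, across all genes. All 10 libraries of the series entered it, 3 as flox/flox and 7 as allele-retaining. The 7 were made of 4 libraries of APE1 flox/+ and 3 of APE1 flox/N211A, in which the other allele carries the mutation N211A. All 3 genotypes therefore carried at least 1 floxed allele, and all animals had received a Cre-encoding adenovirus 12 wk before. Lung tissue was the source, about 500 cells described as premalignant were lysed per library, and transcripts were read with a modified SMART-Seq2 protocol, in which full-length cDNA is amplified by PCR. The promoter that drove Cre, the oncogene of the model, the age of the animals, the stretch of Apex1 between the loxP sites and the share of recombined cells could not be taken from the labels. The labels do not say either whether each library is a different mouse, so every p-value describes the spread between these libraries, which may be technical.

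Apex1 encodes APE1, the endonuclease that cuts DNA at sites where a damaged base has been removed, the central step of base excision repair. The same protein reduces transcription factors such as AP-1 and NF-kB through a redox function. The title of the series ties APE1 to DNA G-quadruplexes, four-stranded folds of G-rich DNA, and to genes of the urea cycle. The lung epithelium that Cre virus reaches holds alveolar type II cells, which make surfactant, club cells, which secrete in the airway, and multiciliated cells, whose motile cilia are switched on by the transcription factors FOXJ1 and RFX.

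RFX factors bind the X-box, and the promoters of 7 genes of motile cilia are shown here because these genes averaged higher in flox/flox libraries in the results below. RefSeq promoters (GRCm38.p6) of 300 bases around the gene start were searched on both strands for the word GTNNCC followed by NNN and then GNAAC, where N is any base. In each window below the match is in capitals and lies upstream of the start, and the letters run 5′ to 3′ on the gene's strand. For Hydin, Cfap44 and Ccno the match lies on the other strand, so the capitals read as its reverse complement.
Hydin, central pair of the axoneme, chr8:110266946-110266976: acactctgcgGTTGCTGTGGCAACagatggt
Spag16, central pair, chr1:69826857-69826890: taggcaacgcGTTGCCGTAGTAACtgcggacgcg
Cfap44, axoneme, chr16:44394762-44394795: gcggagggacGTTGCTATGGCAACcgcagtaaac
Tekt4, tektin filament, chr17:25471420-25471453: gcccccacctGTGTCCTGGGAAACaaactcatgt
Pifo, basal body, first match, chr3:106001545-106001578: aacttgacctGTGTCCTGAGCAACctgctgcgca
Pifo, second match, chr3:106001498-106001527: ccgcggttccGTTCCCTTGGCAACgtagta
Ccno, cyclin O of centriole amplification, chr13:112987573-112987606: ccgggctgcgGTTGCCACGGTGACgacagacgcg
Deup1, deuterosome scaffold, chr9:15627910-15627943: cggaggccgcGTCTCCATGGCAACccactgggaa
The word occurred in 714 of all 32851 promoters (2.17%) and in 3.42% of the tested genes with a promoter at hand. Promoters were at hand for 22 of the 28 ciliated genes tested, under 80%, so a comparison of shares is void and the windows are descriptions of these 7 genes.

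A second search looked for 4 runs of GGG with 1 to 7 bases between runs, on either strand, a pattern held by 18.6% of all promoters and by 30.3% of the tested genes with a promoter at hand. It is shown for 4 genes at or near 0 in flox/flox and for Dnaic2, which averaged higher there, with the runs in capitals. For Lif the match lies on the other strand and reads as C.
Psat1, serine synthesis, chr19:15924793-15924844: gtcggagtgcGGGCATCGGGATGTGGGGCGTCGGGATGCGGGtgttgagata
Myh7, slow myosin heavy chain, chr14:54994586-54994632: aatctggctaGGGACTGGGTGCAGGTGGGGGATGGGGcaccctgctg
Lif, cytokine, chr11:4257386-4257426: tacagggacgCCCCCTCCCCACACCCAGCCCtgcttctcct
Ptges, prostaglandin E synthase, chr2:30903321-30903373: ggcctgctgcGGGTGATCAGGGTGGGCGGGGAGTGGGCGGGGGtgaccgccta
Dnaic2, outer dynein arm, chr11:114727169-114727209: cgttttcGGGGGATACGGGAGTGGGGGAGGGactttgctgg
Among the 12 genes named on each side below, promoters were at hand for 9 on the higher side, of which 1 held it, and for 9 on the lower side, of which 3 did, Hspb8 being the third. Such shares are descriptions, and no difference between them was tested.
The promoter windows of Apex1 and of the 4 genes that passed the test held neither pattern.

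Total counts ran from 8955368 to 53678659 per library. The highest was flox/flox replicate 3, which also had the lowest TMM factor (0.751), and the next was flox/+ replicate 4 at 17707731. Rank correlations over the genes tested were 0.574 to 0.602 between flox/flox libraries and 0.697 to 0.898 among the 7. Flox/flox replicate 1 correlated with the 7 at 0.660 to 0.784, always above its correlation with its own class, and replicates 2 and 3 at 0.560 to 0.665. Flox/flox replicates 2 and 3 lacked many genes that the other libraries held. Of 6212 genes at 20 CPM or more on average in the 7, 17.2% were below 1 CPM in flox/flox replicate 2 and 11.3% in replicate 3, against 2.70% in replicate 1 and 0.0805% to 3.15% in each of the 7, judged by the other 6. Xist, the RNA of the inactive X chromosome, was low in flox/+ replicates 2 and 4 and flox/flox replicate 2, so these 3 libraries were of male type and the other 7 of female type. Whether these differences take part in any result below was not tested.

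The targeted gene was read first. CPM here and below are counts scaled to a common total by TMM factors. Apex1 (chr14:50924968-50927139, GRCm38, plus strand) stood at 6.02 CPM in flox/flox replicate 1, at 0 in replicate 2 and at 0.573 in replicate 3. Flox/+ replicates 1 to 4 held 4.12, 15.9, 35.9 and 54.1 CPM, and flox/N211A replicates 1 to 3 held 7.86, 12.9 and 6.45. Flox/flox replicate 1 thus lay above the lowest flox/+ library and just below the lowest flox/N211A library, and the classes overlapped.

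On average Apex1 was at 2.20 CPM in flox/flox (SD 3.32, n = 3) and at 19.6 CPM in the 7 others (SD 18.6, n = 7). Over all 120 ways of choosing 3 libraries of 10, an exact two-sided permutation test of these means gave p = 0.0333, where the smallest p it allows is 0.0167. In edgeR the difference on the log2 scale was -3.16 with an SE of 1.604, which did not pass (adjusted p = 0.298). Without flox/flox replicate 1 it was -5.95 (edgeR adjusted p = 0.0717), and without replicates 2 and 3 it was -1.71. Exons of Apex1 overlap those of Pip4p1 on the opposite strand, and since the strand setting of the counting is not known, their reads cannot be told apart. Pip4p1 itself averaged 12.5 CPM (SD 13.0, n = 3) in flox/flox, with 25.5 CPM (SD 19.7, n = 7) in the rest.

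The genes around Apex1 were read as well. Of the 13 other tested genes within 1 Mb, 0 passed in edgeR, 1 had a nominal p, which means here an unadjusted p under 0.05, and the median log2 fold change was -0.08. The immediate neighbour Osgep, a tRNA-modifying enzyme, averaged 11.6 CPM (SD 9.54, n = 3) in flox/flox, with 28.5 CPM (SD 16.7, n = 7) in the rest. Ttc5, a cofactor of p53, was the only one of the 13 whose libraries did not overlap, at 53.8, 54.8 and 74.2 CPM in flox/flox and at most 50.9 in the others. Over all genes tested, 6.91% did not overlap and 18.9% had a nominal p, so these counts say nothing particular to the region.

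Across all genes, 4 of the 13464 tested passed edgeR's quasi-likelihood test at an adjusted p under 0.05, which is 0.0297%. Higher in flox/flox were Ccdc78 and Morn3 (0.0149%), and lower were Ostm1 and Tnfrsf23 (0.0149%). All 4 had the same edgeR adjusted p of 0.0360.

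Ccdc78 (chr17:25786580-25790513) encodes a protein of the deuterosome, the structure from which multiciliated cells build their many centrioles. It stood at 255, 591 and 785 CPM in flox/flox replicates 1 to 3. Flox/+ replicates 1 to 4 held 42.0, 70.1, 146 and 44.8 CPM and flox/N211A replicates 1 to 3 held 90.5, 79.0 and 66.3. Every flox/flox library lay above every other library. The means were 544 CPM (SD 268, n = 3) and 76.97 CPM (SD 35.1, n = 7), a 7.06-fold difference, and the log2 fold change was 2.82 (SE 0.44). Exons of Ccdc78 overlap those of Fam173a on the other strand.

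Morn3 (chr5:123035769-123047016), a protein with MORN repeats, held 127, 154 and 258 CPM in flox/flox. In flox/+ it held 15.2, 16.8, 36.0 and 8.99 CPM and in flox/N211A 16.9, 11.0 and 21.6. The lowest flox/flox library was more than 3 times the highest of the 7. The means were 180 CPM (SD 69.5, n = 3) and 18.1 CPM (SD 8.90, n = 7), a 9.93-fold difference, with a log2 fold change of 3.31 (SE 0.52).

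Ostm1 (chr10:42583822-42702459) encodes the partner subunit of the lysosomal chloride and proton exchanger ClC-7. It was at 0 counts in flox/flox replicates 1 and 2 and at 0.0747 CPM in replicate 3, which is the floor of 3 counts in that library. Flox/+ held 34.4, 39.5, 7.48 and 18.4 CPM, and flox/N211A held 40.9, 70.0 and 39.8. All 7 were thus clearly detected and none of the 3 lay above the floor. The fitted log2 fold change of -9.68 (SE 1.53) depends on the handling of such low counts.

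Tnfrsf23 (chr7:143665809-143685872), a decoy receptor for the death ligand TRAIL in the mouse, had 0 counts in all 3 flox/flox libraries. The 7 others held 69.7, 21.8, 34.4 and 35.4 CPM in flox/+ and 8.68, 20.9 and 15.9 in flox/N211A. With a floor of 3 counts per library it was at least 144-fold lower in flox/flox, and at least 111-fold without the highest library, flox/+ replicate 1. Such bounds cover counting error only, since the reads carry no molecular identifiers. Tnfrsf23 overlaps E230032D23Rik on the other strand and has the close paralog Tnfrsf22, so its reads are uncertain.

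**Figure D1:**
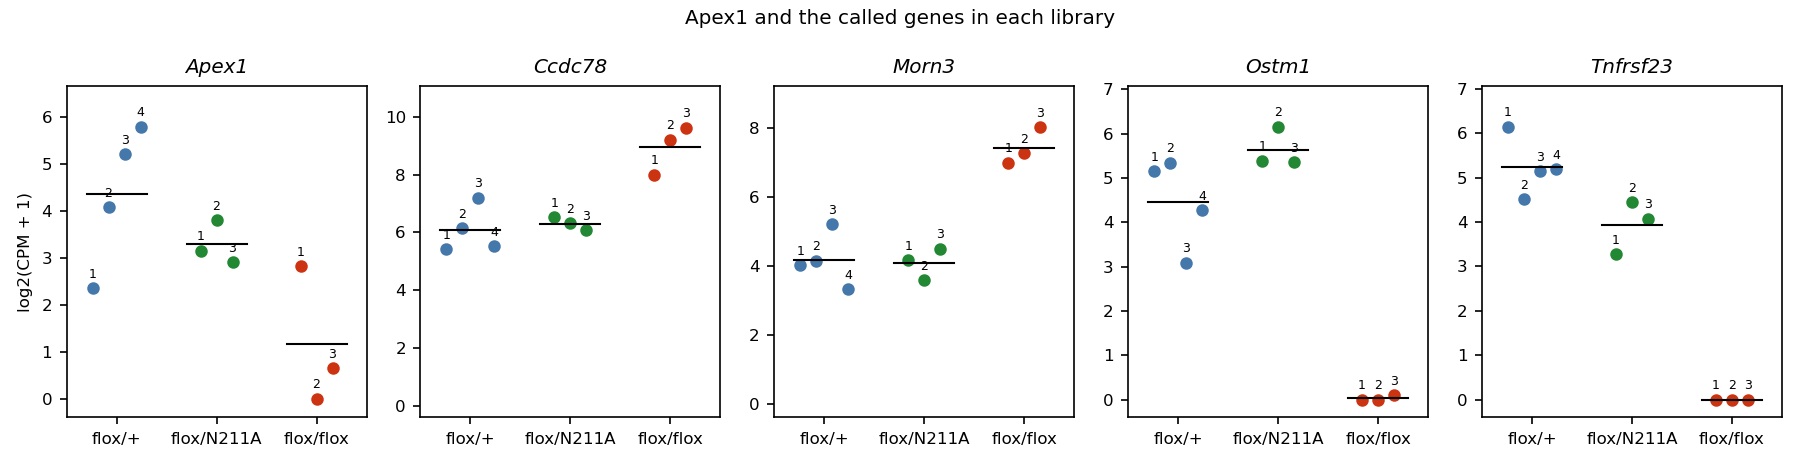
Apex1 and the 4 genes that passed, as log2(CPM + 1) in each of the 10 libraries by genotype, with the replicate number above each point and a line at the genotype mean. Apex1 overlaps between classes through flox/flox replicate 1, while the 3 flox/flox points of the other 4 genes lie entirely above or below the 7 others.

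All 4 calls were kept when any 1 flox/flox library was left out, with an edgeR adjusted p of 0.00536 to 0.0418. Leaving out flox/+ replicate 1, 2 or 4, or any flox/N211A library, ended all 4 calls (adjusted p 0.0922 to 0.140), and without flox/+ replicate 3 all but Tnfrsf23 (0.0576) were kept. Within the 7 libraries of female type the log2 fold changes were 2.54 for Ccdc78 and -9.50 for Ostm1, with edgeR adjusted p of 0.193 and 0.153, and with the Xist class as a term 0 genes were called. The other tools did not give the same count: DESeq2 called 1435 of 12482 genes (11.5%), among them these 4, and limma voom called 0, in the lists below as well.

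Below the threshold the differences were many. A nominal edgeR p was reached by 2544 genes (18.9%), of which 1097 were higher (8.15%) and 1447 lower (10.7%), and 6940 genes had a log2 fold change above 0 (51.5%). The median log2 fold change over all genes was 0.06 with TMM factors, -0.07 with DESeq2 size factors and -0.11 with plain totals, and the median difference of mean log2 CPM was -0.72, so small differences depend on the scale. The 3 flox/flox libraries lay entirely above the 7 others for 295 genes (2.19%) and entirely below for 635 (4.72%), in all 930 (6.91%). The genes above had a median of 32.6 CPM in the 7 and 103 in flox/flox, and the genes below medians of 17.6 and 0.745 CPM. Of the 635, 263 (41.4%) were below 1 CPM in all 3 flox/flox libraries, beside 1637 of all 13464 genes tested (12.2%). Such a gene passed the filter on low counts through the 7, where it is high, so these shares are descriptions. Flox/flox replicate 1 was below 1 CPM for 307 of the 635, replicate 2 for 483 and replicate 3 for 444. Over all genes tested these counts were 3174, 5854 and 4701. The 635 are defined by lying below the 7 in every flox/flox library, so low values there follow in part from that.

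**Figure D2:**
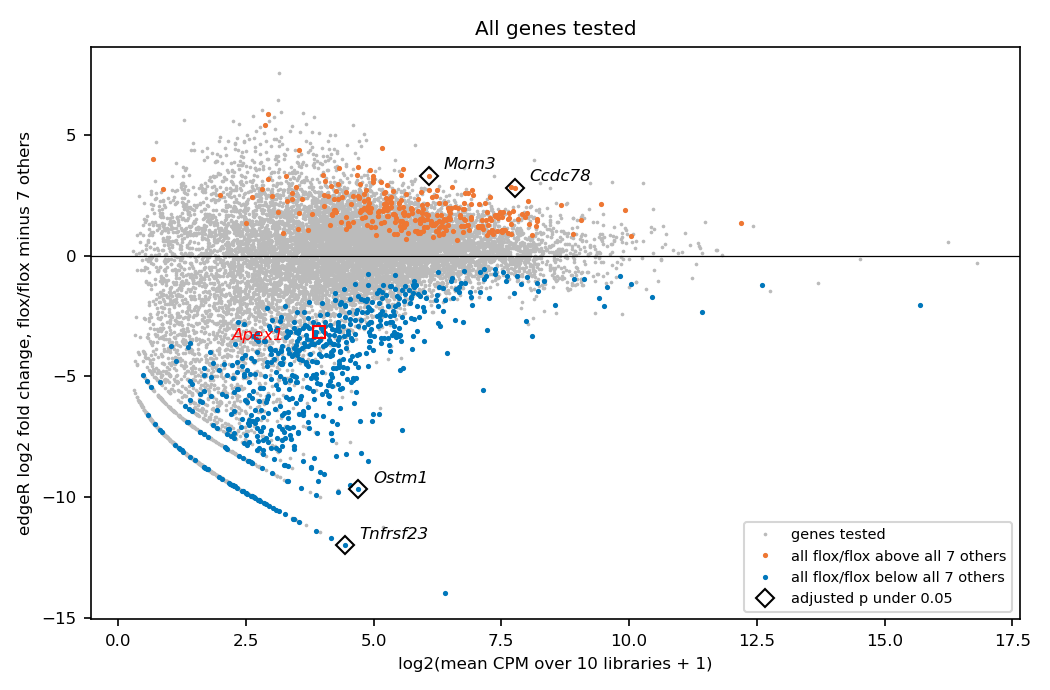
Each tested gene by log2 of its mean CPM plus 1 (x) and edgeR log2 fold change, flox/flox minus the 7 others (y), with genes whose libraries do not overlap in orange and blue, the 4 that passed as diamonds and Apex1 as a square. The 295 orange genes lie mostly at moderate fold changes and middle to high levels, while the 635 blue genes reach far down at low levels, where the curved lines are genes at or next to 0 counts in flox/flox.

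On the higher side, the 12 genes of lowest p without overlap included the 2 that passed, and the other 10 had an edgeR adjusted p of 0.0569 to 0.0622 and log2 fold changes of 2.25 to 3.57. At least 4 encode parts of the motile axoneme. Dnaic2, an intermediate chain of the outer dynein arm, stood at 249, 126 and 514 CPM in flox/flox and between 22.3 and 70.9 (median 46.2) in the 7. Wdr63, of the inner dynein arm, held 119, 334 and 415 CPM against 26.6 to 71.7 (median 49.0). Dnah7c, an inner-arm dynein heavy chain with close paralogs among which reads may be split, held 140, 119 and 563 against 19.99 to 87.9 (median 39.1).

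Cfap54, of the central apparatus, held 332, 344 and 1054 CPM against 49.2 to 168 (median 132). Spata17, named for spermatogenesis, the other tissue that builds axonemes, held 142, 162 and 390 against 15.7 to 53.1 (median 26.4). In these 5 genes flox/flox replicate 3 was the highest library of all 10, and replicates 1 and 2 were close to each other or differed by less than 3-fold.

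Vwa3a, which carries a von Willebrand A domain, held 180, 175 and 1196 CPM against 35.7 to 110 (median 61.1). Mycbpap, a partner of the MYC-binding protein MYCBP, held 123, 56.4 and 255 against 16.9 to 30.7 (median 24.2). The others are not axonemal: Qsox1, a sulfhydryl oxidase of the secretory pathway, held 35.0, 63.9 and 290 CPM against 4.78 to 14.4 (median 12.3). Clcc1, a chloride channel of the endoplasmic reticulum, held 164, 59.3 and 271 against 14.4 to 35.8 (median 23.3), and Mpp7, a scaffold of cell polarity, held 78.4, 63.7 and 411 against 19.6 to 41.3 (median 28.2). None of these 10 passed without flox/flox replicate 3 (edgeR adjusted p 0.0699 to 0.315), and all 10 passed without replicate 1 (0.00588 to 0.0165) or replicate 2 (0.0196 to 0.0412). Without replicate 3 the fold moved by over 1.5 times in 7 of them, whose log2 fold changes became 1.33 for Vwa3a, 1.35 for Mpp7, 1.51 for Cfap54, 1.54 for Dnah7c, 1.97 for Mycbpap, 2.06 for Dnaic2 and 2.21 for Qsox1.

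On the lower side, 2 of the 12 genes passed and the other 10 had an edgeR adjusted p of 0.0569 to 0.0600, each near 0 in all flox/flox libraries. All 10 passed when flox/flox replicate 1 was left out (0.00536 to 0.0206) or replicate 2 (0.0277 to 0.0428), and 5 passed without replicate 3 (0.0127 to 0.0848 over the 10). Psat1, an enzyme of serine synthesis whose promoter is printed above, was at 0.0941 CPM in flox/flox replicate 1 and at 0 in replicates 2 and 3, against 7.68 to 67.4 (median 18.7) in the 7. Fn1, fibronectin of the extracellular matrix, was at 0.188, 0 and 0.125 CPM against 9.18 to 144 (median 27.4). Impact, an inhibitor of the stress kinase GCN2, was at 0, 0 and 0.299 against 13.7 to 54.4 (median 39.9).

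Hspb8, a small heat shock protein, was at 1.32, 0.0866 and 0 CPM against 32.9 to 108 (median 63.2). Setd7, a lysine methyltransferase, was at 0.376, 0.0866 and 0.149 against 10.9 to 45.8 (median 23.04). Uhrf2, a ubiquitin ligase that reads modified cytosine, was at 0, 0 and 0.0498 against 10.1 to 47.4 (median 13.1). In all of these, flox/flox replicate 1 was at most 1.32 CPM. These genes were chosen because every flox/flox library lay below every allele-retaining library, so low values in replicate 1 follow in part from the choice.

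Cd302, a C-type lectin receptor, was at 0.188, 0 and 0.0498 CPM against 11.7 to 53.9 (median 21.3), and B3gat2, a glucuronyltransferase, at 0.0941, 0.866 and 0.174 against 3.25 to 67.5 (median 50.5). Myh7, the slow myosin heavy chain of heart and muscle, was at 0.282, 0.173 and 0.448 CPM against 20.4 to 91.3 (median 26.2). Mhrt, the RNA antisense to Myh7, was at 0, 0 and 0.224 against 13.0 to 82.3 (median 18.9). Myh7 and Mhrt share exonic sequence on opposite strands, so they cannot be counted as 2 separate observations.

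**Figure D3:**
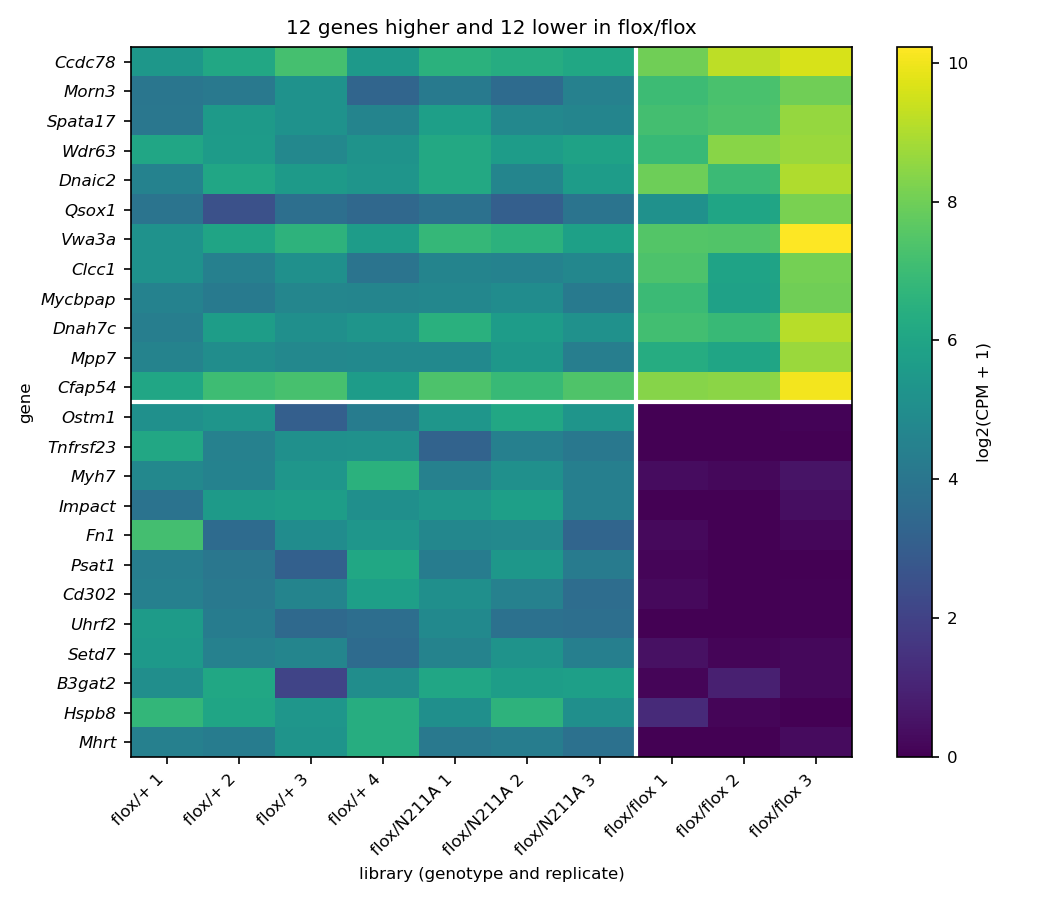
log2(CPM + 1), by colour, of the 12 genes named on each side (rows) in the 10 libraries (columns), with white lines between the 7 allele-retaining and the 3 flox/flox libraries and between the higher and lower genes. The upper genes are brighter in all 3 flox/flox libraries and brightest in replicate 3 for all 12, and the lower genes are dark in all 3.

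A total of 17 genes (0.126%) had 0 counts in all flox/flox libraries and over 1 CPM in each of the 7, and 0 (0%) showed the reverse. The reverse asks for 0 counts in 7 libraries rather than 3, so the 2 counts cannot be compared. All 17 passed the filter on low counts through the 7, where they are high. Of the tested genes, 15.3%, 34.2% and 10.4% were at 0 counts in flox/flox replicates 1 to 3, and 2.82% to 16.6% in the 7. Of the 17 genes, the 5 with the highest minimum in the 7 include 3 encoding secreted or surface signals. Besides Tnfrsf23 these were Tnfsf9, the ligand of the costimulatory receptor 4-1BB, at 4.91 to 607 CPM (median 13.9) in the 7, and Lif, a cytokine of the interleukin 6 family, at 8.06 to 19.1 (median 12.7). Ptges, which makes prostaglandin E, was at 6.24 to 41.7 CPM (median 12.9), and Slc26a4, the anion exchanger pendrin, at 6.95 to 22.1 (median 13.2).

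With the floor of 3 counts per library, Lif was at least 59.7-fold, Slc26a4 at least 68.0-fold and Ptges at least 95.6-fold lower in flox/flox. Tnfsf9 was at least 575-fold lower, and at least 179-fold without flox/+ replicate 4, the library at 607 CPM. None of these 4 passed (edgeR adjusted p 0.0594 to 0.0719).

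Markers of motile cilia were on the higher side. Of 28 ciliated cell genes tested, 27 had a log2 fold change above 0, 24 were higher and 0 lower at a nominal edgeR p, and 0 passed in edgeR after adjustment, while DESeq2 called 14, all higher. These are shares of 85.7% at a nominal p and 50% by DESeq2, beside 8.15% and 11.5% of all genes. Their median log2 fold change was 1.66, beside 0.06 over all genes, and 13 were above the 7 in every flox/flox library. Of all genes tested, 51.5% had a log2 fold change above 0 and 2.19% were above the 7 in every flox/flox library. Summed over the list, flox/flox held 9182, 14240 and 22350 CPM and the 7 held 2576 to 8966 (median 5046), so flox/flox replicate 1 was only just above flox/+ replicate 3. In bulk libraries fewer cells of a type and less RNA per cell cannot be told apart, here and for every marker list.

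Cdhr3, a cadherin of ciliated cells, stood at 692, 545 and 1404 CPM in flox/flox and 79.4 to 319 (median 231) in the 7 (log2 fold change 2.11, edgeR adjusted p = 0.0627). Dnali1, a light chain of the inner dynein arm, stood at 287, 365 and 629 against 52.3 to 203 (median 107), and Drc1, of the nexin-dynein complex, at 109, 189 and 775 against 12.1 to 104 (median 67.7). Among the genes with an X-box printed above, Hydin was at 357 CPM on average against 101, Spag16 at 246 against 59.1, Cfap44 at 562 against 138, Tekt4 at 133 against 48.9 and Pifo at 449 against 181. Hydin and Pifo did not overlap between classes, while Spag16, Cfap44 and Tekt4 did. In flox/flox replicates 1 to 3 Spag16 was at 195, 46.6 and 495 CPM and Cfap44 at 347.5, 96.0 and 1244. Dnaaf1, a dynein assembly factor, was the 1 member below 0, at 18.7 against 22.2 CPM (log2 fold change -0.24).

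Regulators of multiciliogenesis showed the same side. Of 17, 14 were tested, 12 lay above 0, 4 were higher and 0 lower at a nominal edgeR p, 1 passed (Ccdc78; DESeq2 called 2), and the median log2 fold change was 1.35. The share higher at a nominal p was 28.6% and that called by DESeq2 15.4%, beside 8.15% and 11.5% of all genes. Summed levels were 829, 1297 and 1761 CPM in flox/flox and 235 to 515 (median 421) in the 7, again without overlap. Foxj1, the master regulator of motile cilia, which the ciliated list also holds, stood at 100, 65.5 and 356 CPM against 6.89 to 62.5 (median 28.3). Rfx3, one of the X-box factors, stood at 137, 133 and 226 against 13.5 to 85.2 (median 57.1).

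E2f4, which acts with multicilin in centriole amplification, was at 19.2, 94.1 and 44.0 CPM against 6.09 to 34.1 (median 15.6), so its libraries overlapped. Ccno, with an X-box above, was at 14.9 CPM on average against 4.53 and Deup1 at 58.0 against 15.97, neither with a p under 0.05. In flox/flox replicates 1 to 3 Ccno was at 36.5, 7.62 and 0.573 CPM and Deup1 at 12.4, 76.6 and 85.0, and both overlapped between classes. Upstream factors were scarce: Mcidas, which encodes multicilin, was at 0 CPM on average in flox/flox and 0.380 in the 7, below the filter, and Gmnc was at 4.74 and 2.75. Without flox/flox replicates 2 and 3 the medians were 1.02 for ciliated genes and 0.92 for regulators, beside -0.80 over all genes in that fit.

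Alveolar type II markers were on the other side. Of 21 tested, 1 lay above 0, 12 were lower and 1 higher at a nominal edgeR p, 0 passed in edgeR and 9 in DESeq2, all lower, and the median log2 fold change was -1.47. The share lower at a nominal p was 57.1% and that called by DESeq2 42.9%, beside 10.7% and 11.5% of all genes. Summed levels were 36710, 33400 and 29600 CPM in flox/flox and 57900 to 212400 (median 66570) in the 7, with no overlap, and the 3 flox/N211A libraries (57900, 60410 and 66570) were close to flox/+ replicate 2 at 58380. Sftpc, surfactant protein C, made up most of that sum, at 16850 CPM on average against 68590.

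Cxcl15, the lung-specific chemokine lungkine, stood at 1673, 207 and 295 CPM in flox/flox and 2021 to 7967 (median 3032) in the 7 (log2 fold change -2.32, edgeR adjusted p = 0.133). Scd1, a fatty acid desaturase, was at 360, 43.6 and 262 against 544 to 1883 (median 830), and Egfl6, a secreted matrix protein, at 20.7, 0.0866 and 1.12 against 43.3 to 262 (median 86.4). Chil1, a chitinase-like protein, was at 453, 126 and 107 against 396 to 3180 (median 764), with replicate 1 inside the range of the 7. Sftpb, surfactant protein B, which club cells also make, was the 1 member above 0, at 2292 against 1078 CPM. Without flox/flox replicates 2 and 3 the list's median was -0.86, close to the -0.80 over all genes in that fit, and without replicate 1 it was -2.21.

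Club cell markers were not on 1 side. Of 13 tested, 7 lay above 0, 3 were higher and 0 lower at a nominal edgeR p, 0 passed in edgeR and 2 in DESeq2, and the median was 0.22 by edgeR but -0.03 as a difference of mean log2 CPM, and -0.05 by edgeR with plain totals. The share higher at a nominal p was 23.1%, beside 8.15% of all genes, and that called by DESeq2 15.4%, near the 11.5% of all genes. Sec14l3, a lipid transfer protein, stood at 7054, 7692 and 9594 CPM in flox/flox, above all of the 7 at 1660 to 3947 (median 3761). Cyp2f2, the club cell cytochrome P450, was at 2925, 7107 and 5275 against 1087 to 3012 (median 2094), and Cbr2, a carbonyl reductase, at 3353, 14830 and 9630 against 1381 to 9079 (median 3764). The secretoglobin Scgb1a1 averaged 99490 against 121900 CPM, and summed levels of the list overlapped.

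Markers of cells outside the epithelium varied from library to library, and no summed level separated the classes. Summed endothelial markers were at 101, 3.99 and 32.1 CPM in flox/flox replicates 1 to 3 against 21.3 to 244 in the 7, and leukocyte markers at 8.19, 79.3 and 71.6 against 17.0 to 380. Fibroblast and mesenchyme markers, among which Gsn is widely expressed, were at 1607, 56.7 and 1566 against 203 to 1096, so flox/flox replicates 1 and 3 lay above the 7. Erythroid markers, nearly all globin, were at 86.1, 2948 and 773 against 0.841 to 3016. Hba-a1 and Hba-a2 had identical values in every library, so the same reads may enter this sum under both names. Heart and striated muscle markers, which include Myh7, were at 92.8, 31.6 and 83.4 against 57.8 to 136. The defining leukocyte gene Ptprc was at 0.0249 CPM on average in flox/flox and 2.11 in the 7, and the endothelial gene Pecam1 at 0.0996 and 5.28. Their part in the genes named as lower was not tested.

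**Figure D4:**
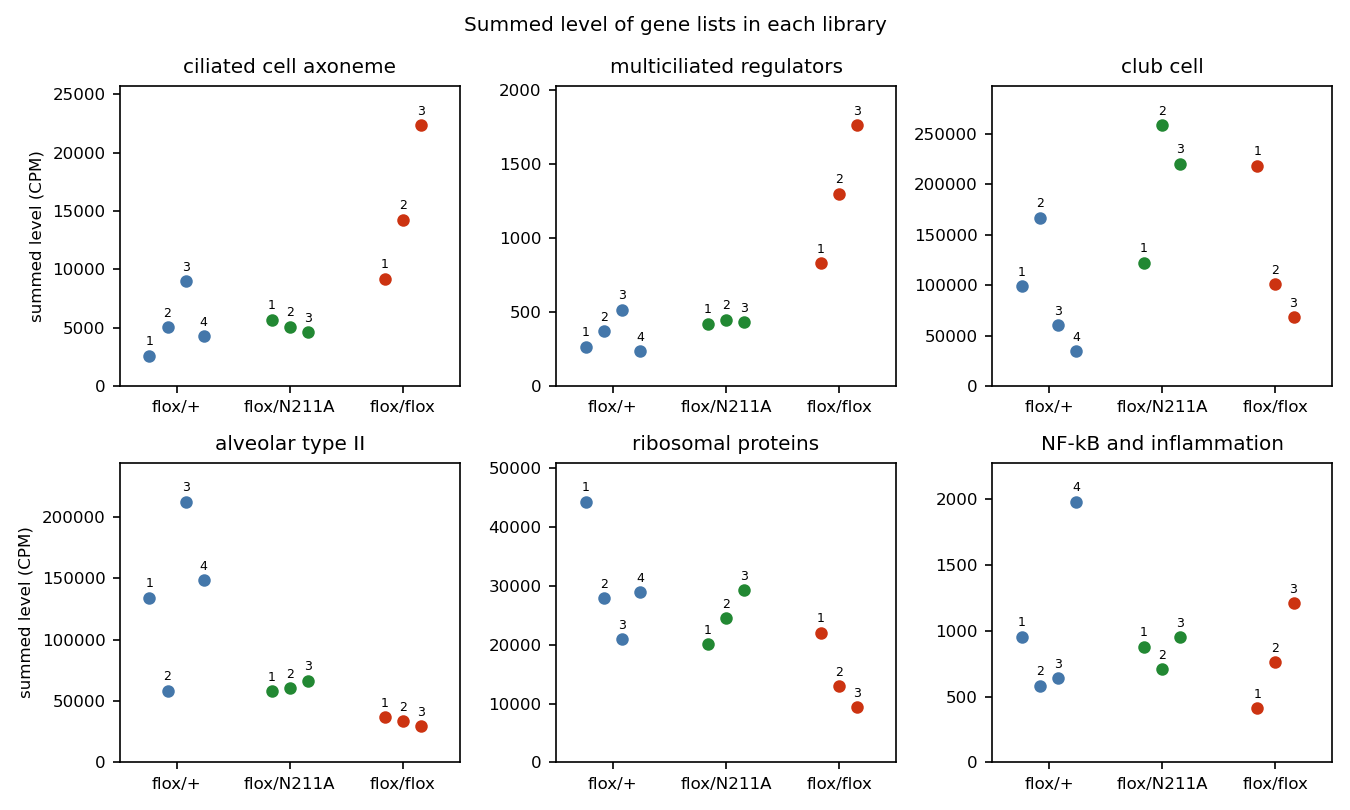
Summed level of 6 gene lists, in CPM from 0, in each library by genotype, with replicate numbers. Ciliated and regulator lists are higher in all 3 flox/flox libraries and alveolar type II lower, while club cell, ribosomal protein and NF-kB lists overlap between classes.

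Cytosolic ribosomal protein genes lay below 0 in all 52 members tested, 16 of them lower at a nominal edgeR p and 0 passed (DESeq2 called 4), with a median log2 fold change of -0.86. The share lower at a nominal p was 30.8%, beside 10.7% of all genes, and that called by DESeq2 7.69%, below the 11.5% of all genes. These genes have many processed pseudogenes, so their counts are uncertain. Summed levels were 22000, 12960 and 9372 CPM in flox/flox and 20070 to 44300 (median 27900) in the 7, and flox/flox replicate 1 lay inside the range of the 7. Rps4x stood at 611, 246 and 270 CPM against 619 to 1490 (median 779), Rps19 at 741, 646 and 286 against 879 to 1920 (median 1209), and Rpl14 at 169, 175 and 131 against 205 to 526 (median 337). Rpl6 was at 181, 161 and 209 against 210 to 622 (median 393), the lowest of the 7 lying at the level of flox/flox replicate 3. The median was -1.18 without flox/flox replicate 1 and -0.30 without replicates 2 and 3, beside -0.25 and -0.80 over all genes in those fits.

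In base excision repair, APE1's own pathway, 0 of 21 genes tested passed, 8 lay above 0, 1 was higher and 1 lower at a nominal edgeR p, and the median was -0.42. DESeq2 called 2, both lower. The shares, 4.76% on each side and 9.52% by DESeq2, were no higher than those over all genes. Xrcc1, the scaffold that holds ligase III, stood at 9.22, 138 and 24.2 CPM in flox/flox and 0 to 11.9 (median 8.13) in the 7. Aptx, which clears adenylated ends, was at 33.4, 127 and 60.4 against 0.861 to 62.3 (median 17.1), so most of its difference came from replicate 2.

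The glycosylase gene Mpg was at 2.82, 0 and 0.0498 CPM against 2.72 to 19.1 (median 13.5), with replicate 1 inside the range of the 7. Polb, the polymerase that fills the gap, averaged 12.3 against 25.4 CPM and Parp1, the break sensor, 6.82 against 17.7. Apex2, the paralog of Apex1, was at 0, 40.98 and 0.274 CPM in flox/flox against 0 to 13.2 (median 6.06), so only replicate 2 lay above the 7.

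Of 9 urea cycle genes, 7 were tested and 0 passed. Arg1, cytosolic arginase, had 0 counts in all flox/flox libraries, but the 7 ranged from 0 to 86.6 CPM (median 3.62) and overlapped. Arg2, the mitochondrial arginase, was at 41.1, 81.0 and 47.1 CPM against 26.0 to 253 (median 70.2). Ass1, argininosuccinate synthase, was at 5.74, 35.0 and 110 against 1.999 to 18.3 (median 3.54), and Asl, the lyase of the next step, at 6.68, 109 and 61.7 against 3.15 to 76.4 (median 9.51).

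The median of the 7 urea cycle genes was -0.51, with 2 above 0. At a nominal edgeR p 1 was higher (14.3%) and 2 were lower (28.6%), beside 8.15% and 10.7% of all genes. DESeq2 called 1 (14.3%, beside 11.5% of all genes). With 7 genes these shares are descriptions. Cps1 and Otc, the mitochondrial steps that mark liver, were below the filter, at 0.340 and 0.0083 CPM on average in flox/flox and 0.00856 and 0 in the 7. Without flox/flox replicates 2 and 3, Ass1 and Asl took the opposite sign, at -0.51 and -1.78.

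Of 22 genes of the TNF superfamily and its adaptors, 17 were tested and 1 passed, Tnfrsf23. At a nominal edgeR p, 6 were lower and 0 higher, and the median was -1.76. DESeq2 called 6, all lower, which is 35.3% by either count, beside 10.7% and 11.5% of all genes. Of the 17, 5 were at 0 counts in every flox/flox library, as were 449 of all 13464 genes tested. They were Tnfsf9, Tnfrsf23, Tnfrsf1b, Tnfrsf22 and Tnfrsf26, with averages of 118, 29.6, 7.88, 5.95 and 3.48 CPM in the 7. Such genes passed the filter on low counts through the 7, so this count is a description. Tnfrsf22 and Tnfrsf23 are close paralogs whose reads are uncertain, so they are not 2 separate observations. The adaptor Tradd was at 0.188, 14.4 and 40.5 CPM against 0.795 to 9.50 (median 2.02), and the death receptor Fas at 8.28, 42.8 and 99.5 against 2.12 to 47.4 (median 15.4). Both took the opposite sign without flox/flox replicates 2 and 3, at -3.99 and -1.23.

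For NF-kB and inflammation 0 of 20 genes tested passed, 8 were lower and 0 higher at a nominal edgeR p, and the median log2 fold change was -3.04. DESeq2 called 7, all lower. The shares were 40% and 36.8%, beside 10.7% and 11.5% of all genes. Of the transcription factors themselves, Rela averaged 32.8 against 40.1 CPM, Nfkb1 53.3 against 34.7, and the inhibitor Nfkbia 317 against 310. Il1b, interleukin 1 beta, was at 0, 0 and 0.0747 CPM against 0 to 59.7 (median 8.84), and Cxcl5, a neutrophil chemokine, at 0, 0 and 0.299 against 0 to 32.8 (median 16.8).

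Ccl20, a chemokine for CCR6, was at 1.88, 0 and 0 CPM against 0 to 257 (median 4.83), while Nfkbiz, an atypical IkB protein, was at 8.38, 0 and 3.93 against 5.27 to 109 (median 45.1). Tnfaip3, the inhibitor A20, averaged 2.12 against 44.8. Each of these overlapped between classes. The leukocyte values given above were also lower on average in flox/flox, and their part was not tested.

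The AP-1 and MAPK output list had 25 genes tested, of which 7 lay above 0, 4 were lower and 0 higher at a nominal edgeR p, and 0 passed (DESeq2 called 3), with a median of -0.56. The shares, 16% and 12%, were near the 10.7% and 11.5% of all genes, so the counts say nothing particular to the list. Fosl2, an AP-1 subunit, was at 30.2, 13.8 and 11.1 CPM against 45.1 to 126 (median 68.6), without overlap. The ERK phosphatase gene Dusp6 was at 60.4, 51.5 and 91.4 against 88.7 to 213 (median 171), Spred1, a Ras inhibitor, at 64.7, 51.8 and 12.9 against 64.6 to 175 (median 121), and Fosb at 201, 229 and 138 against 167 to 548 (median 446). Fos averaged 2062 against 1481 CPM and Jun 249 against 296.

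In the integrated stress response, whose targets ATF4 controls, 0 of 22 passed, 7 lay above 0, 4 were lower and 0 higher at a nominal edgeR p, and the median was -0.22. DESeq2 called 4, all lower, 18.2% by either count beside 10.7% and 11.5% of all genes. Beside Psat1, the alanyl-tRNA synthetase gene Aars was at 0.565, 0 and 0.0996 CPM against 5.63 to 50.6 (median 20.02), and Mthfd2, of mitochondrial folate metabolism, at 0, 0 and 0.598 against 1.79 to 47.8 (median 10.5). Neither overlapped between classes. Atf4 itself averaged 181 against 153 CPM, and Sesn2, a sestrin, was at 0.188, 12.9 and 108 against 0 to 20.7 (median 3.43).

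Among 25 lysosomal genes 1 passed, Ostm1, 9 lay above 0, 2 were higher and 3 lower at a nominal edgeR p, and the median was -0.50. These shares, 8% higher and 12% lower, were near the 8.15% and 10.7% of all genes. DESeq2 called 1 higher and 3 lower, 16.7% beside 11.5% of all genes. Clcn7, which encodes the ClC-7 exchanger that needs OSTM1, was at 0.565, 0.693 and 0.0747 CPM against 1.20 to 44.0 (median 9.29), entirely below the 7 (log2 fold change -4.94, edgeR adjusted p = 0.197). Npc2, a cholesterol carrier, was at 451, 604 and 565 against 821 to 3399 (median 1237), also without overlap. Psap, the saposin precursor, was at 78.5, 108 and 556 against 20.1 to 115 (median 29.5), and the main membrane protein gene Lamp1 averaged 282 against 399.

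MHC class I presentation leaned to the higher side. Of 15 tested, 14 lay above 0, 4 were higher and 0 lower at a nominal edgeR p, 0 passed in edgeR and 1 in DESeq2, and the median was 0.61. The share higher at a nominal p was 26.7%, beside 8.15% of all genes, and that called by DESeq2 6.67%, below the 11.5% of all genes. H2-T23, the Qa-1 molecule, was at 172, 313 and 406 CPM in flox/flox, all above the 7 at 52.9 to 124 (median 87.8). The chaperone Pdia3 was at 490, 370 and 1804 against 122 to 584 (median 286), the peptide transporter Tap2 at 10.4, 21.4 and 127 against 3.97 to 19.2 (median 11.3), and tapasin, Tapbp, at 81.1, 118 and 251 against 52.3 to 109 (median 75.2). The class I heavy chain genes are close paralogs, so reads may be split among them. The median stayed between 0.41 and 0.90 under the alternatives run for it.

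The 20 lists not described by member held 299 tested genes, of which 0 passed in edgeR. They cover further cell types and pathways, and the medians of the 18 lists with at least 5 tested genes ran from -4.46 (leukocyte) to 0.86 (glycolysis and hypoxia). Setting genes at 0 counts in flox/flox to their bound left all these medians as they were except the endothelial one, which went from -3.54 to -2.78. Of all 33 lists, the summed level separated the classes in 3 only, those of ciliated cells, multiciliated regulators and alveolar type II cells.

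Against each allele-retaining genotype alone, edgeR called 0 genes. Against flox/+ 1942 genes had a nominal p (0% and 14.4%), and against flox/N211A 1622 (0% and 12%). Both contrasts use the same 3 flox/flox libraries, so their values are given side by side only. Ccdc78 had a log2 fold change of 2.84 against flox/+ and 2.79 against flox/N211A, Ostm1 of -9.17 and -10.18. The ciliated list had medians of 1.65 and 1.70 and the ribosomal list of -1.01 and -0.68, while for alveolar type II genes they were -1.87 and -1.10.

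Inside the allele-retaining class, flox/N211A against flox/+ gave 0 calls (0%) and 193 genes at a nominal p (1.43%), and voom and DESeq2 were not run for these genotype pairs. The list medians between these 2 genotypes were 0.22 for ciliated genes, -0.43 for alveolar type II genes and -0.23 for ribosomal protein genes. Tnfsf9 was the named gene with the widest difference inside the class, at 15.2, 11.8, 168 and 607 CPM in flox/+ and 13.9, 4.91 and 7.43 in flox/N211A (log2 fold change -4.52, SE 1.29, edgeR adjusted p = 1.00).

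**Figure D5:**
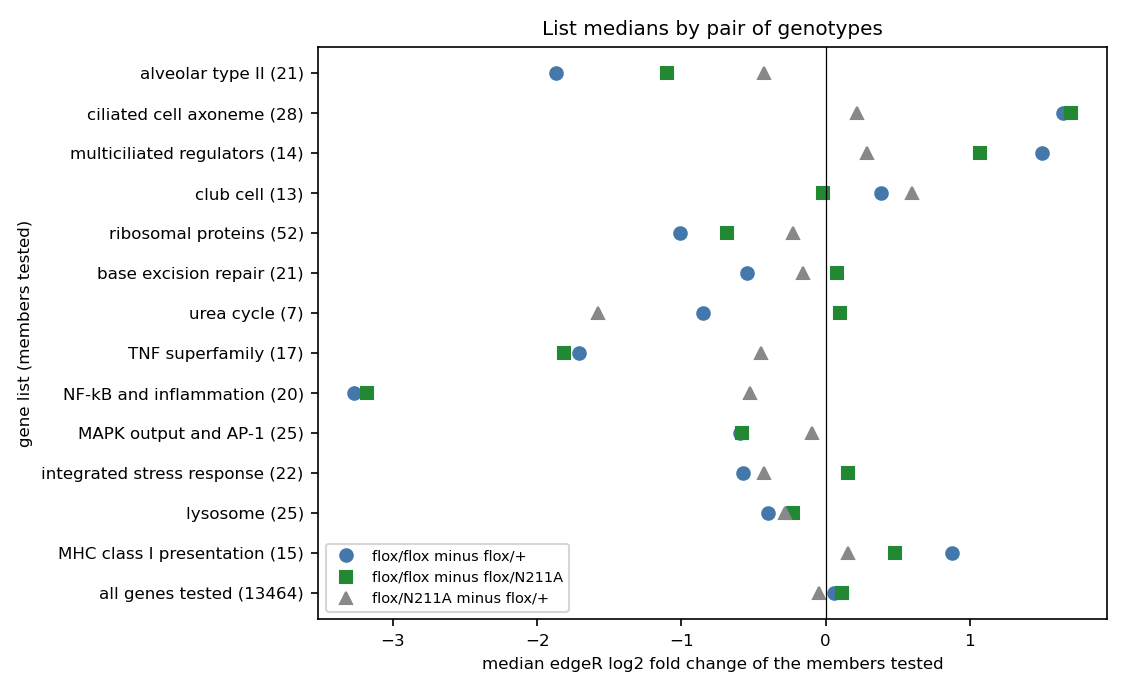
Median edgeR log2 fold change of 13 gene lists and of all genes tested for the 3 pairs of genotypes, with the number of members tested in parentheses. Circles and squares share the flox/flox libraries; they lie together at the right for ciliated genes and at the left for NF-kB genes, and the triangles for flox/N211A minus flox/+ lie closer to 0 for these lists.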

How the data were processed

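The authors deposited unnormalized counts of reads for 25277 gene symbols in 10 mouse lung libraries. The tools named are Trim Galore 0.5.0, HISAT2 2.1.0 on mm10, featureCounts 1.6.4 and, with no version, DESeq2, per the submitters' processing notes. The sources used here do not give how reads were assigned (gene models, strand, reads with several matches). Antisense and overlapping genes, paralogs and pseudogenes are therefore uncertain.

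Each column matched 1 sample by its label, which gave genotype and replicate. No 2 replicates agreed within sampling noise (chi-square per gene 116 to 1140), and each counted as 1 sample. Same-numbered libraries of different genotypes did not deviate together. In edgeR 4.0.16 (R 4.3.3), filterByExpr on the 2 classes left 13464 genes, TMM factors scaled the totals, and a quasi-likelihood model with 1 term, 2 floxed alleles or 1, was fitted to all 10 libraries. Tests were two-sided at a Benjamini-Hochberg adjusted p of 0.05 over all of these genes. The biological coefficient of variation was 1.22 (common dispersion 1.48). The genotypes were compared pairwise in a fit with 3 levels. Log2 CPM used a prior count of 2. Coordinates are from GENCODE M21 (24418 symbols matched, 96.6%), and promoters from RefSeq on GRCm38.p6 (10640 of the genes tested, 79.0%).

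Named were Apex1; per direction the 12 genes with the smallest p, filled with genes that did not pass, at a mean of 20 CPM in 1 class, without overlap of libraries and leaving out clone names; the 5 genes at 0 counts in all flox/flox libraries with the highest minimum in the 7; and up to 4 members per described list with the smallest p and a mean of 10 CPM in 1 class. Others named were chosen after their values were seen. The members and the 33 gene lists were chosen with earlier results of these data known, and the 13 lists described by member after the results were seen. List counts are descriptions and no list was tested. Alternatives were DESeq2 1.42.0, limma 3.58.1 (voom with quality weights), other scalings, filters, thresholds and model terms, and leaving out libraries.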

Additional observations from a re-analysis of the deposited data

Results flagged for a closer look

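Within the 7 allele-retaining libraries, 38 items were checked for 1 library standing far from the others, and 5 (13.2%) had one. The rule flags about 1 in 20 groups by chance only where values are normally distributed, which was not shown for CPM. The items are not independent either, since Myh7 and Mhrt share exonic sequence, so no excess over chance is shown. All 5 were flox/+ libraries, and the cause was not tested. Myh7 stood at 91.3 CPM in flox/+ replicate 4, with the next library at 40.1, and its antisense RNA Mhrt at 82.3 CPM in the same library, with the next at 38.4. Tnfsf9 stood at 607 CPM in flox/+ replicate 4, with the next at 168. Fn1 stood at 144 CPM in flox/+ replicate 1, with the next at 40.9. The summed level of ribosomal protein genes was 44300 CPM in flox/+ replicate 1, with the next at 29230. Myh7, Mhrt, Tnfsf9 and Fn1 were named because all 7 libraries lay above the flox/flox libraries, so the other 6 do so by choice. For the ribosomal sum, flox/flox replicate 1 at 22000 CPM lay above the lowest of the 7 at 20070.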

How the results depend on the processing

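The number of genes called depended on nearly every choice. Beside 4 in the main fit, edgeR called 0 with genotype as a term of 3 levels, weighted equally or 4 to 3, 0 with the Xist class as a term, 1 within the Xist-positive libraries, 49 with the number of genes detected as a term (28 higher, 21 lower) and 21 with flox/flox replicates 2 and 3 left out together (1 higher, 20 lower, none of the 4), where the lone library is assumed to vary like the others. It called 6 with DESeq2 size factors, 6 with plain totals, 496 without a filter on low counts, 28 with a filter of 10 CPM in 3 libraries, 77 at an adjusted p under 0.1, 4 with a 2-fold minimum and 2544 at an unadjusted p. DESeq2 called 1435 (271 higher, 1164 lower, no adjusted p for 982), and voom 0. Leaving out 1 library gave 0 to 969 calls: omitting flox/flox replicate 1, 2 or 3 gave 969, 191 or 32, omitting flox/+ replicate 3 gave 3, and omitting any other gave 0. The count of genes without overlap, 930, was 990 to 3044 with 1 library left out, with the highest value after omitting flox/flox replicate 1. It was 1985 and 1836 on omitting flox/flox replicate 2 or 3, and 1399 on omitting the third flox/+ library. The cause of these moves was not tested, beyond the fewer libraries that must not overlap.

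With the replicate block edgeR called 0. Same-numbered libraries of different genotypes correlated at -0.0649 to 0.0976, so the numbers are not shown to pair them. Apex1 stayed negative and did not pass under all 21 alternatives, at -5.95 to -1.71. None of the 28 genes named by direction or at 0 counts reversed. They were chosen because their libraries did not overlap between classes, so this follows largely from the choice. Of the 45 other list members named, 38 never reversed. The 7 that did, with flox/flox replicates 2 and 3 left out together, were Cbr2 at -0.23, Ass1 at -0.51, Asl at -1.78, Tradd at -3.99, Fas at -1.23, Sesn2 at -4.85 and Tap2 at -0.11. Of 31 list medians 19 kept their sign throughout. Depth limits the lowest values: 3 counts correspond to 0.0747 to 0.282 CPM.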
